A study of Mus musculus with 18 samples.

Results

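The calcium release unit of the cardiomyocyte is the site at which the sarcoplasmic reticulum faces the T-tubule membrane. There, the ryanodine receptor opens on calcium entry and releases stored calcium, and triadin anchors calsequestrin to the receptor from the luminal side. The 9 genes described here encode partners of triadin in this unit, namely *Ryr2* (the release channel), *Casq2* (the calcium-storing protein of the lumen), *Hrc* (a histidine-rich luminal calcium-binding protein), *Asph* (whose locus encodes both junctin and aspartyl beta-hydroxylase), *Jph2* and *Jph1* (the junctophilins that bridge the T-tubule and the sarcoplasmic reticulum) and *Fkbp1b*, *Calm2* and *Calm3* (FKBP12.6 and calmodulin, which bind to the channel). They were chosen by name, out of 20914 genes with a peak within 5000 nt of their start. A union peak is a region of enrichment merged over all libraries, and a peak was assigned to a member if the table gave it the member's symbol, which is done only near gene starts, or if it had no gene and lay within the member. This gave 108 of 101256 union peaks, 21 with the symbol and 87 without a gene.

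ChIP-seq libraries of the mouse heart had been made for RNA polymerase II, for the DNA-binding protein CTCF, the positive control, and with IgG as background. The 3 genotypes were WT, *Trdn-as* KO (trdn-as KO), homozygous for a germline polyA signal in the first exon of the antisense RNA of triadin and backcrossed to C57BL/6, and *Mettl3* KO (Mettl3lox/lox:alphaMHC-MerCreMerpos), in which a tamoxifen-dependent Cre driven by the alphaMHC promoter deletes the m6A methyltransferase in cardiomyocytes, so that other cells keep the gene. All animals were adult, the labels give no age, and they call the controls WT although the methods also mention Mettl3lox/lox controls. The methods describe tamoxifen injections on consecutive days for the *Mettl3* KO line and for Mettl3lox/lox controls. Nothing states whether the mice of the WT libraries were treated. The loss of *Mettl3*, the Cre transgene and the treatment can thus not be told apart. For each genotype there were 2 RNA polymerase II libraries, 2 CTCF libraries and 1 IgG library. The chromatin came from ventricles of pooled hearts, and nothing states that the 2 libraries came from separate animals, so p-values measure the spread between libraries, which may be technical.

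The values are the deposited normalized signal per peak, called signal below. The signal summed over all peaks lay between 4046774 and 5185209 in the RNA polymerase II libraries, 2871381 and 3106550 in the CTCF libraries and 1795351 and 2070332 in the IgG libraries. One read was worth between 0.945 and 2.04 units of signal in the RNA polymerase II libraries and between 2.54 and 6.56 in the IgG libraries, so that IgG is scaled up in these units. The share of mapped reads inside peaks was 35.5% to 42.6% in 5 of these libraries and 18.6% in *Trdn-as* KO replicate 2, which stands apart, and the *Trdn-as* KO fold changes of the gene sums are also given without it. At the targeted gene *Trdn-as*, RNA polymerase II signal was 690 and 804 for WT, 580 and 571 for *Mettl3* KO and 175 and 126 for *Trdn-as* KO (log2 fold change against WT -2.32, adjusted p = 1.8e-39, and -2.08 and 6.3e-08 without *Trdn-as* KO replicate 2). At *Mettl3* it was 199 and 215 for WT and 262 and 248 for *Mettl3* KO, and since the deletion lies within the gene and in cardiomyocytes only, this is no check of the label. The 8 cardiomyocyte marker genes all had peaks and gave summed signals of 29552 to 31980 for WT, 23541 to 30477 for *Trdn-as* KO and 30813 to 30925 for *Mettl3* KO. Of these, *Myh6* held 10654 and 11527 for WT, 9901 and 7625 for *Trdn-as* KO and 11283 and 11566 for *Mettl3* KO. *Myh6* is the gene of alphaMHC, whose promoter drives the Cre transgene. Its CTCF sum was higher in *Mettl3* KO than in WT (limma, log2 fold change 0.67, adjusted p = 1.5e-06). Whether copies in the transgene add to these signals was not tested.

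The sequences before the starts of *Casq2*, *Ryr2* and *Jph2* are shown because the differences described below turn on these genes. That of *Calm3* is shown because it had the highest level per length among members with an entry, when the peak over the *Hrc* start is left out. RefSeq promoters in GRCm38.p6 were matched for 6 of the 9 members, and *Asph*, *Calm2* and *Jph1* had no entry. Each line holds the 250 bases before the start, 5′ to 3′ on the strand of the gene, with each CG dinucleotide in capitals.
Casq2 (chr3:102086165-102086414, plus strand): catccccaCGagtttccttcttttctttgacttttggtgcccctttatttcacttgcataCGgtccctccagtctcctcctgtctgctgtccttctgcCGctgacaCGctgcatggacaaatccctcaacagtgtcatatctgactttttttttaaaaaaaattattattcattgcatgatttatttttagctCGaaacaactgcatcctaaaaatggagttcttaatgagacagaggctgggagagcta
Ryr2 (chr13:12106946-12107195, minus strand): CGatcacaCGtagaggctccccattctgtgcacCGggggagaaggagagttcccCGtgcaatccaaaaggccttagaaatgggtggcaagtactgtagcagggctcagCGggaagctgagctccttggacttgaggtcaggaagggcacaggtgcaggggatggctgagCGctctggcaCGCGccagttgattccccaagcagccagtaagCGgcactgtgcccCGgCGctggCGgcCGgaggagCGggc
Jph2 (chr2:163397994-163398243, minus strand): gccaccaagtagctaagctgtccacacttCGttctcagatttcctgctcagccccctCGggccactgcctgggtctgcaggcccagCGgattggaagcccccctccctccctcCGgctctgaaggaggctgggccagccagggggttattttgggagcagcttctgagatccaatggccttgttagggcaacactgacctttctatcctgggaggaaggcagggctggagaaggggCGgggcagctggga
Calm3 (chr7:16924033-16924282, minus strand): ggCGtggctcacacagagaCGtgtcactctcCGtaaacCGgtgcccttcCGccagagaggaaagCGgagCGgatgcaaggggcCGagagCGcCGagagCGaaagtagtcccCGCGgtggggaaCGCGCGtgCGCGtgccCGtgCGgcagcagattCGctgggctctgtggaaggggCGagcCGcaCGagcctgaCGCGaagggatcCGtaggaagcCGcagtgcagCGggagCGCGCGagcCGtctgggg
The *Casq2* window had a GC content of 41.6% and 5 CG dinucleotides, and 14.9% of the 32851 promoters in the table had a lower GC content. The *Ryr2* window had 63.2% and 14, the *Jph2* window 62.0% and 5, and the *Calm3* window 69.2% and 33. *Fkbp1b* had 64.8% and 17, *Hrc* had 59.6% and 3, and the median over all promoters was 52.4% and 6. The letters TATAAA, the core of the TATA box, were found on neither strand of the windows of the 6 members, against 12.4% of all promoters. The E-box letters CANNTG, which read the same on both strands, occurred in *Casq2* at 200 and 52 bases before the start, in *Ryr2* at 102 and 66, in *Hrc* at 22 and in *Jph2* at 9, and 66.2% of all promoters held them. The CCAAT letters occurred in *Jph2* at 161 and 80 bases before the start and in *Hrc* at 64, against 33.9% of all promoters, and GATAA occurred in *Hrc* at 102, against 22.6%. The CArG box was found in none of the 6, against 1.47% of all promoters. These matches describe the windows and do not show binding.

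The level of RNA polymerase II at each gene was taken as the sum over its peaks, divided by their total length. In WT, *Calm2* had the highest level with 283 ± 0.730 units per kb (SD, n = 2), followed by *Calm3* with 143 ± 0.471. *Jph2* had 97.4 ± 3.19, *Jph1* 92.1 ± 0.371, *Hrc* 87.6 ± 1.87 and *Fkbp1b* 75.8 ± 3.06. *Asph* had 65.7 ± 3.44 and *Ryr2* 62.2 ± 5.65, and the values of these neighbours overlapped between libraries. *Casq2* had the lowest level, with 51.4 ± 0.543. *Ryr2* and *Jph2* had 34 and 33 peaks and *Fkbp1b* had 1, so the lengths summed over differ widely. At the start peak alone, *Ryr2* had 142 units per kb in WT and *Casq2* had 80.3, above the 75.8 of *Fkbp1b*. The order thus depends on which peaks are summed. The peak over the start of *Hrc*, which the table gives to a neighbour (described below), is left out of this order, and with it *Hrc* had 153 ± 3.28, above *Calm3*. Relative to the IgG library of the same genotype, in RPM (reads scaled to the mapped reads of the library), the members had 5.73 to 19.8 times as much in WT, 4.58 to 23.1 times in *Trdn-as* KO and 4.63 to 24.0 times in *Mettl3* KO. The ratio was thus above 1 for every member in each genotype. As the peaks had been called for enrichment over input, this outcome was favoured in advance. At *Fkbp1b*, the *Trdn-as* KO IgG signal was 7, where 1 read was worth 6.56, so that ratio rests on about 1 read and does not show a level above background.

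**Figure D1:**
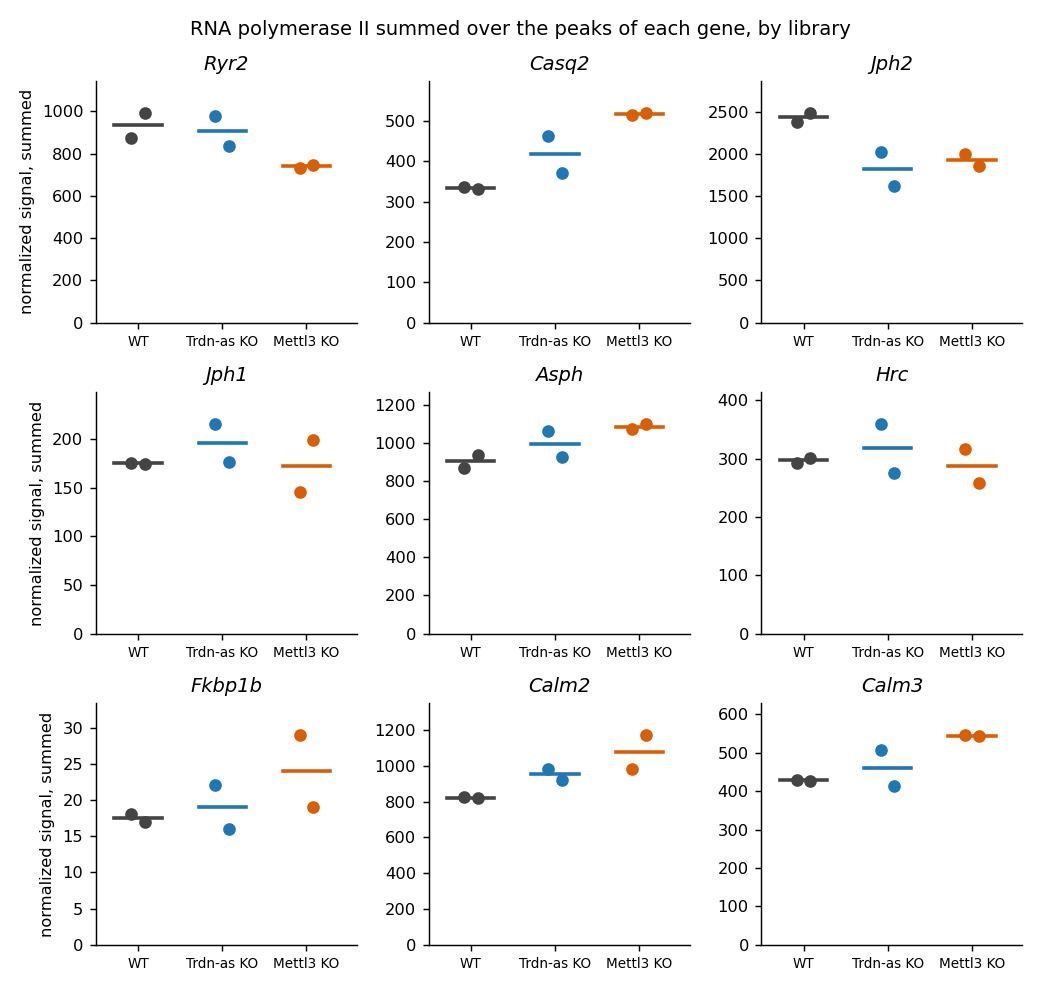
RNA polymerase II signal summed over the peaks of each of the 9 genes (y axis, normalized signal from 0), with 1 point per library and a line at the mean of the 2 libraries of each genotype (x axis). The *Mettl3* KO libraries lie above both WT libraries at *Casq2* and below them at *Ryr2* and *Jph2*.

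For the release channel *Ryr2* (ENSMUSG00000021313, chromosome 13, 11567988 to 12121831, minus strand, GRCm39), RNA polymerase II was highest at the start. The peak over the start, from 12117606 to 12122317, held signals of 641 and 697 for WT, 746 and 605 for *Trdn-as* KO and 526 and 533 for *Mettl3* KO. Both *Mettl3* KO libraries were below the WT libraries, and the *Trdn-as* KO libraries lay on either side of them. The 32 peaks without a gene, all with their centre in an intron, had means over the 6 libraries of 0.667 to 22.2 with a median of 5.17. The highest of these, from 12085286 to 12086031 and 36172 nt into the gene, held 11 and 20 for WT, 15 and 37 for *Trdn-as* KO and 24 and 26 for *Mettl3* KO. The gene sum was 875 and 995 for WT, 979 and 837 for *Trdn-as* KO and 734 and 746 for *Mettl3* KO. Its log2 fold change against WT was -0.33 in *Mettl3* KO (SE 0.15, adjusted p = 0.17) and -0.04 in *Trdn-as* KO (SE 0.15, adjusted p = 0.997), neither past the threshold of 0.05.

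Among the luminal proteins, *Casq2* (ENSMUSG00000027861, chromosome 3, 101993731 to 102053830, plus strand) was the only member called in *Mettl3* KO against WT, where its gene sum was higher. The sums of *Asph*, *Fkbp1b*, *Calm2* and *Calm3* were also higher in both *Mettl3* KO libraries than in both WT libraries, without a call. The peak over the *Casq2* start, from 101993080 to 101996031, held 233 and 241 for WT, 351 and 242 for *Trdn-as* KO and 396 and 410 for *Mettl3* KO. The *Mettl3* KO libraries were well above the WT libraries, and *Trdn-as* KO replicate 2 was close to the WT libraries. The peak rose in *Mettl3* KO by a log2 fold change of 0.76 (SE 0.18, adjusted p = 0.020). It was the only one of 63 tested member peaks called in this comparison, against a background of 1.19% of all peaks tested. The call of this peak was lost in the same settings as that of the gene sum, given below. The gene sum was 337 and 332 for WT, 464 and 371 for *Trdn-as* KO and 516 and 521 for *Mettl3* KO. It rose in *Mettl3* KO 1.55-fold (log2 fold change 0.63, 95% interval 0.30 to 0.96, adjusted p = 0.010). The call was lost when either WT or either *Mettl3* KO library was left out (adjusted p from 0.32 to 0.50, log2 fold change 0.62 to 0.64), with no filter (adjusted p = 0.24), with no variance trend (adjusted p = 0.27) and when libraries were scaled by mapped reads (log2 fold change 0.49, adjusted p = 1.00). In *Trdn-as* KO, the gene sum had a log2 fold change of 0.31 (SE 0.17, adjusted p = 0.74), and without *Trdn-as* KO replicate 2 it was 0.47 (adjusted p = 0.034, a setting in which 0.846% of all genes were called). Further along the gene, the highest of 4 peaks without a gene lay 13342 nt from the start and held 53 and 66 for WT, 66 and 63 for *Trdn-as* KO and 71 and 70 for *Mettl3* KO.

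*Hrc* (ENSMUSG00000038239, chromosome 7, 44984714 to 44988398, plus strand) had 4 peaks with its symbol, none over its start. The start lies in a peak from 44982131 to 44985624 that the table gives to the neighbouring channel gene *Trpm4*, and which held 746 and 769 for WT, 796 and 727 for *Trdn-as* KO and 845 and 876 for *Mettl3* KO. The highest peak with the symbol, from 44988726 to 44991302, lay beyond the gene end and held 241 and 259 for WT, 311 and 222 for *Trdn-as* KO and 270 and 219 for *Mettl3* KO. The groups overlapped at this peak. The gene sum had log2 fold changes against WT of 0.08 in *Trdn-as* KO (SE 0.18) and -0.06 in *Mettl3* KO (SE 0.18), and with the peak over the start added these were 0.03 and 0.12.

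*Asph* (ENSMUSG00000028207, chromosome 4, 9448069 to 9669344, minus strand) had strong RNA polymerase II signal at 2 sites. The peak over the gene start, from 9668297 to 9670143, held 409 and 399 for WT, 469 and 446 for *Trdn-as* KO and 520 and 535 for *Mettl3* KO. Both knockouts lay above WT there, with log2 fold changes of 0.38 in *Mettl3* KO (adjusted p = 0.22) and 0.18 in *Trdn-as* KO (adjusted p = 0.87). The peak inside the gene from 9642089 to 9644194 held 249 and 287 for WT, 336 and 200 for *Trdn-as* KO and 356 and 343 for *Mettl3* KO. It was the highest of the 87 member peaks without a gene, and it held the start of 6 annotated transcripts, 5 of them protein-coding, at 25627 nt from the gene start in an annotation of GRCm38, in which this gene has the coordinates of the table. The sum of the promoter peaks and the sum of the other peaks were alike in size, with 443 and 424 against 427 and 513 for WT. Over the whole gene, the log2 fold change against WT was 0.26 in *Mettl3* KO (SE 0.14, adjusted p = 0.26) and 0.14 in *Trdn-as* KO (SE 0.14, adjusted p = 0.99).

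A weak *Asph* peak, from 9529731 to 9530705, had its centre in an intron and overlapped an exon. This peak held 14 and 8 for WT, 24 and 24 for *Trdn-as* KO and 1 and 5 for *Mettl3* KO. In a comparison of the knockouts, it was higher without *Trdn-as* (log2 fold change 2.85, SE 0.70, adjusted p = 0.020) and the only one of 63 tested member peaks called in that comparison, against 1.50% of all peaks tested. In RPM it was 1.73 and 1.10 for *Trdn-as* KO and 1.13 in the IgG library of that genotype, so that its signal was near the background. The call was lost when any 1 of the 6 libraries was left out (adjusted p from 0.053 to 0.36).

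**Figure D2:**
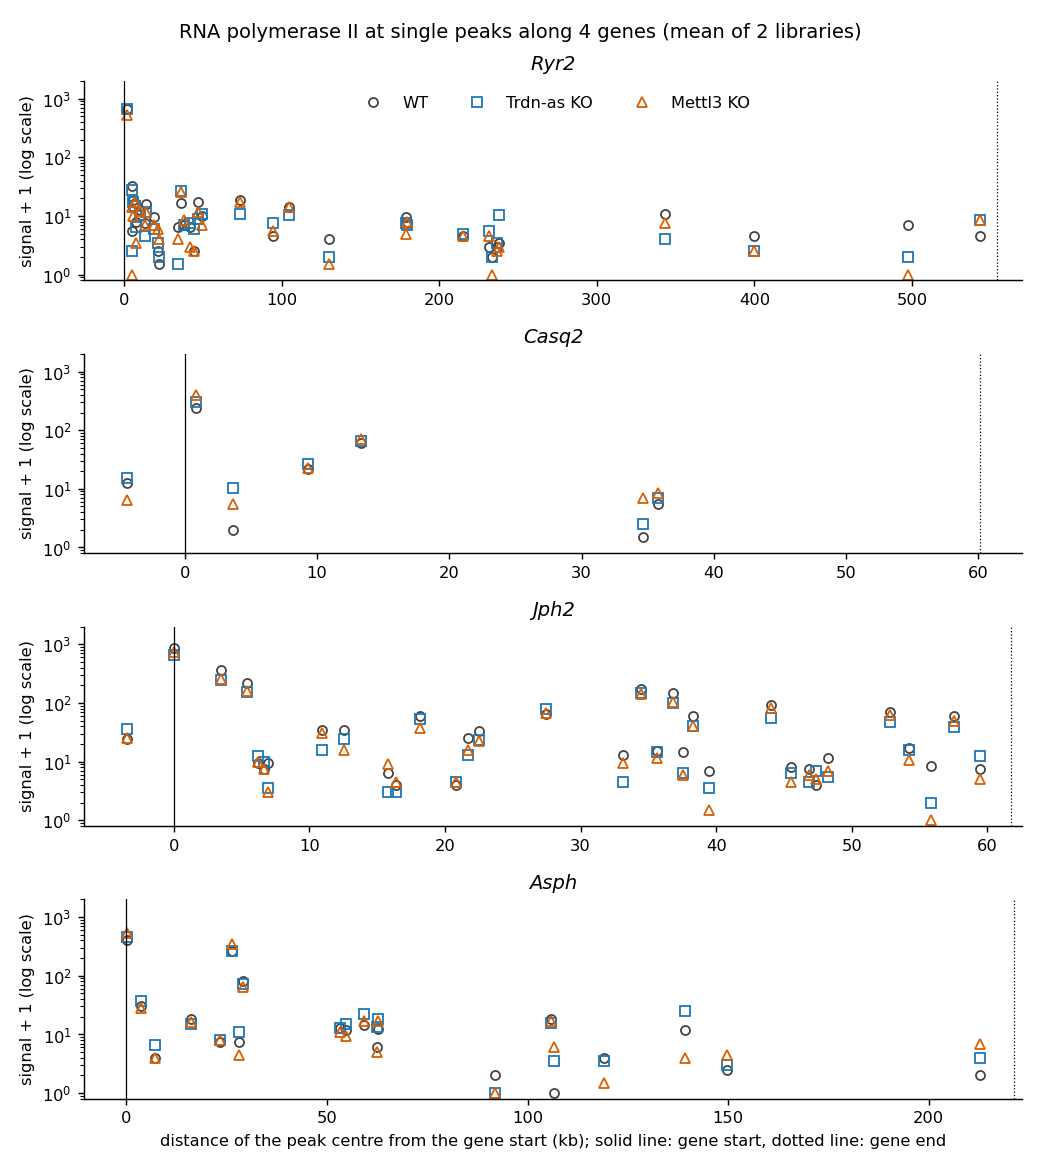
Mean RNA polymerase II signal of the 2 libraries of each genotype (y axis, signal + 1 on a log scale) at each peak of *Ryr2*, *Casq2*, *Jph2* and *Asph*, against the distance of the peak centre from the gene start in kb (x axis). The highest peak of *Ryr2* lies at the start, with peaks of low signal along the gene, *Jph2* has strong peaks along the whole gene, and *Asph* has a further strong peak 26202 nt inside the gene.

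Of the junctophilins, *Jph2* (ENSMUSG00000017817, chromosome 2, 163178162 to 163239913, minus strand) carried the largest RNA polymerase II sum of the 9 genes, spread over 33 peaks of which 8 had a mean signal of at least 50. The peak over the start, from 163237640 to 163242168, held 818 and 891 for WT, 763 and 564 for *Trdn-as* KO and 754 and 744 for *Mettl3* KO. The adjoining peak from 163235269 to 163237556 held 342 and 389 for WT, 282 and 218 for *Trdn-as* KO and 259 and 243 for *Mettl3* KO. At both peaks, all 4 knockout libraries were below both WT libraries. The same held for the highest peak without a gene, from 163204738 to 163206149 and 34470 nt into the gene, with 184 and 165 for WT, 162 and 130 for *Trdn-as* KO and 136 and 147 for *Mettl3* KO. The gene sum was 2384 and 2497 for WT, 2029 and 1626 for *Trdn-as* KO and 2002 and 1857 for *Mettl3* KO. Its log2 fold change came to -0.43 in *Trdn-as* KO (95% interval -0.69 to -0.16, adjusted p = 0.14) and -0.34 in *Mettl3* KO (95% interval -0.60 to -0.08, adjusted p = 0.12), and neither passed the threshold over all genes. Of its 21 tested peaks, 18 had a log2 fold change below 0 for *Trdn-as* KO and 18 in *Mettl3* KO (medians -0.55 and -0.43), while among all peaks tested 57.6% and 44.8% were below 0, with medians of -0.07 and 0.08. Without *Trdn-as* KO replicate 2, the log2 fold change of the *Jph2* sum in *Trdn-as* KO was -0.27 (adjusted p = 0.088), and 17 of its 21 peaks were below 0 (median -0.35), against 41.7% of all peaks (median 0.08).

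*Jph1* (ENSMUSG00000042686, chromosome 1, 17034784 to 17168113, minus strand), the junctophilin best known from skeletal muscle, had 2 peaks. The peak over the start, from 17166931 to 17168383, held 162 for each WT library, 183 and 167 for *Trdn-as* KO and 134 and 194 for *Mettl3* KO. The *Mettl3* KO libraries lay on either side of WT. The gene sum had log2 fold changes of 0.16 in *Trdn-as* KO (95% interval -0.24 to 0.55) and -0.04 in *Mettl3* KO (95% interval -0.44 to 0.35).

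Of the proteins that bind the channel from the cytosol, *Calm2* (ENSMUSG00000036438, chromosome 17, 87740840 to 87754363, minus strand) held 822 and 816 for WT, 980 and 914 for *Trdn-as* KO and 978 and 1164 for *Mettl3* KO in the peak over its start, from 87752797 to 87755316. All 4 knockout libraries were above both WT libraries. *Calm3* (ENSMUSG00000019370, chromosome 7, 16649304 to 16658039, minus strand) held 426 and 418 for WT, 494 and 403 for *Trdn-as* KO and 535 and 536 for *Mettl3* KO in the peak from 16656837 to 16659015. Its *Mettl3* KO libraries were above WT, and its *Trdn-as* KO libraries lay on either side. In *Mettl3* KO, the gene sums had log2 fold changes of 0.38 at *Calm2* (SE 0.15, adjusted p = 0.11) and 0.35 at *Calm3* (SE 0.16, adjusted p = 0.19). In *Trdn-as* KO they were 0.21 (adjusted p = 0.91) and 0.10 (adjusted p = 0.997).

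*Fkbp1b* (ENSMUSG00000020635, chromosome 12, 4883174 to 4891591, minus strand), the gene of the channel-stabilizing FKBP12.6, had 1 peak of 231 nt at its start. It held 18 and 17 for WT, 22 and 16 for *Trdn-as* KO and 29 and 19 for *Mettl3* KO. The groups overlapped between WT and *Trdn-as* KO. With log2 fold changes of 0.10 and 0.41 and a SE of 0.48, its interval in *Mettl3* KO ran from -0.54 to 1.35, so that at this depth a difference of this size was not detectable.

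Over the 9 genes, 1 was called in *Mettl3* KO against WT, against 4.01% of the 17052 genes tested, and 5 had an unadjusted p below 0.05 (*Ryr2*, *Casq2*, *Jph2*, *Calm2* and *Calm3*), against 22.2% of all genes. In *Trdn-as* KO against WT, limma called 0 members, against 0.592% of all genes, with 1 at an unadjusted p below 0.05 (*Jph2*), against 7.13%. Between the knockouts it called 0, against 5.81% of all genes, with 1 below that p (*Ryr2*), against 26.8%. For peaks, 0 of 63 were called in *Trdn-as* KO against WT, against 0.304% of all peaks, and 7 had an unadjusted p below 0.05, against 7.70%. At that p, 12 peaks were found in *Mettl3* KO against WT and 7 between the knockouts, against 15.5% and 17.9% of all peaks. The median log2 fold change of all genes was 0.20 for *Mettl3* KO and -0.04 for *Trdn-as* KO, and the medians of the 9 members were 0.26 and 0.10. Without *Trdn-as* KO replicate 2, the *Trdn-as* KO medians were 0.11 for all genes and 0.25 for the members. The log2 fold change against WT was then 0.07 at *Ryr2*, 0.30 at *Jph1*, 0.23 at *Asph*, 0.27 at *Hrc*, 0.31 at *Fkbp1b*, 0.25 at *Calm2* and 0.25 at *Calm3*, with adjusted p from 0.16 to 0.80. Relative to the all-gene median, the *Mettl3* KO differences were 0.43 at *Casq2*, -0.54 at *Jph2* and -0.53 at *Ryr2*. With each library centred on the median of the tested genes, *Casq2* was called higher (0.41, adjusted p = 0.0018) and *Jph2* and *Ryr2* lower (-0.56 and -0.55, adjusted p = 3.2e-09 and 5.3e-07) in *Mettl3* KO, and *Casq2* higher (0.37, adjusted p = 0.020) and *Jph2* lower (-0.37, adjusted p = 1.0e-04) in *Trdn-as* KO. This setting was added after the data were seen, and it called 9.82% and 2.35% of all genes. With either *Trdn-as* KO library left out of the model, which then estimates the spread from fewer libraries, 6 members were called in *Mettl3* KO against WT, *Casq2*, *Asph*, *Calm2* and *Calm3* higher and *Ryr2* and *Jph2* lower, but so were 32.7% and 33.1% of all genes.

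**Figure D3:**
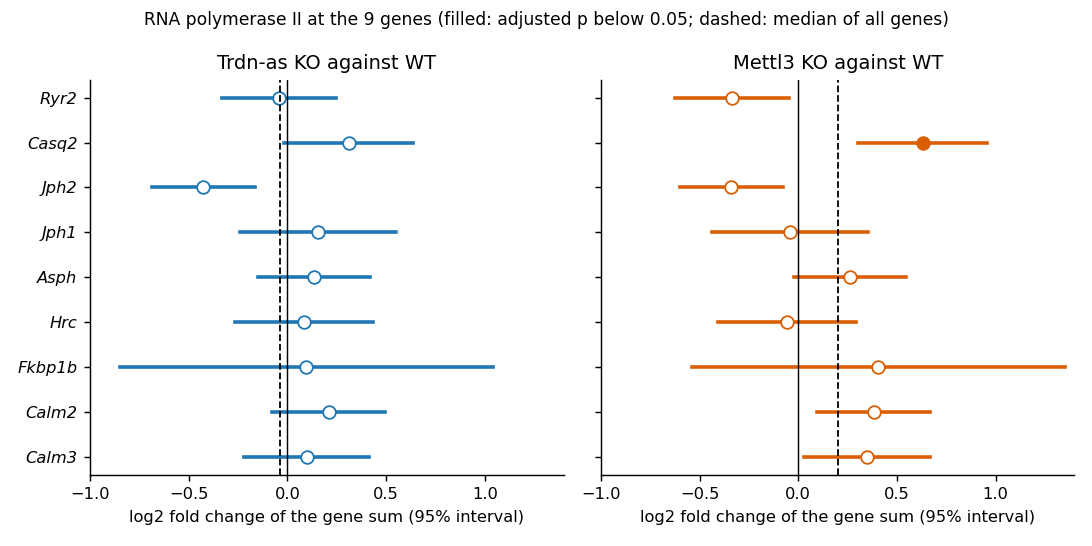
Log2 fold change of the RNA polymerase II gene sum against WT (x axis) for the 9 genes (y axis) in both knockouts, with 95% intervals from limma, filled points at an adjusted p below 0.05 and a dashed line at the median of all genes. *Casq2* in *Mettl3* KO is the only filled point, and *Jph2* lies below 0 in both panels.

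The balance between members can be read within a library, where no scaling between libraries enters. Background still enters these ratios, and *Trdn-as* KO replicate 2 had only 18.6% of its mapped reads in peaks. The part of background in the ratios was not tested. The log2 ratio of *Casq2* to *Jph2* was -2.82 and -2.91 for WT, -2.13 and -2.13 for *Trdn-as* KO and -1.95 and -1.83 for *Mettl3* KO. The ratio was higher in all 4 knockout libraries, by 0.74 for *Trdn-as* KO and 0.97 for *Mettl3* KO. The log2 ratio of *Casq2* to *Ryr2* was -1.37 and -1.58 for WT, -1.08 and -1.17 for *Trdn-as* KO and -0.51 and -0.52 for *Mettl3* KO, higher by 0.35 and 0.96. The 3 genotypes did not overlap in either of these ratios. The log2 ratio of *Calm2* to *Jph2* was -1.53 and -1.60 for WT, -1.05 and -0.81 for *Trdn-as* KO and -1.03 and -0.66 for *Mettl3* KO, and here the knockouts overlapped (exact permutation p = 0.67 between them). These ratios were chosen after the data were seen, and the exact two-sided permutation test gave p = 0.33 for each against WT, the smallest it allows with 2 libraries against 2.

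**Figure D4:**
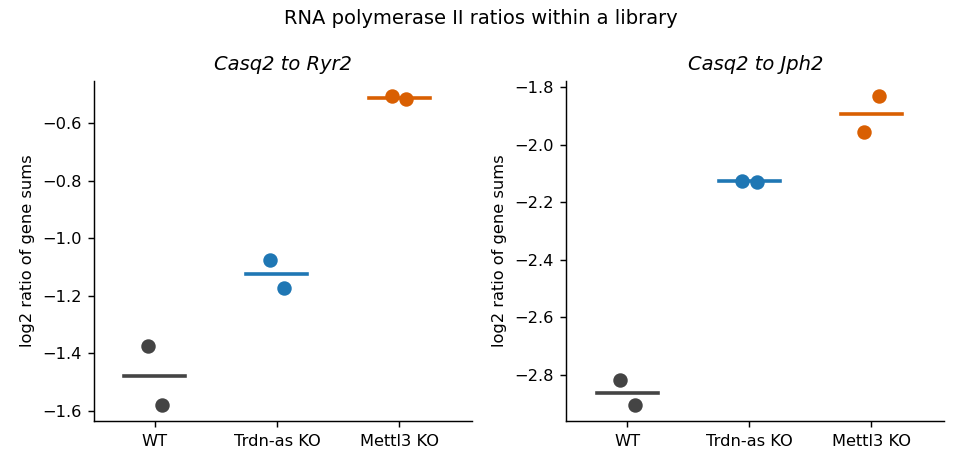
Log2 ratio of the RNA polymerase II gene sums of *Casq2* to *Ryr2* (left) and *Casq2* to *Jph2* (right) within each library (y axis, starting away from 0), by genotype, with 1 point per library and a line at the mean. In both ratios, WT is lowest, *Mettl3* KO is highest and *Trdn-as* KO lies between.

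The ventricle holds several cell types, and a different share of cardiomyocytes and a different signal per cell cannot be told apart in these libraries. Of the 8 fibroblast marker genes, all of which had peaks, 7 were called higher in *Mettl3* KO than in WT (*Col3a1* by a log2 fold change of 1.42, *Col1a1* by 1.22), where 4.01% of all genes were called. The summed signal of the 8 was 1736 to 1897 for WT, 1872 to 2523 for *Trdn-as* KO and 3447 to 3538 for *Mettl3* KO. With no filter or with no variance trend, only 1 of all genes was called in this comparison, so most of these calls were lost. The cardiomyocyte list had 0 of 8 genes called in *Mettl3* KO against WT, with a median log2 fold change of 0.04. Over all genes, 4.01% were called and the median was 0.20. The part of cell composition in the values of *Casq2*, *Ryr2* and *Jph2* in *Mettl3* KO was not tested.

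Within the gene, the promoter peaks were set against the other peaks for the 7 members that have both. The median over these of the log2 ratio of promoter to other signal was 1.69 and 1.60 for WT, 1.95 and 1.64 for *Trdn-as* KO and 1.91 and 2.01 for *Mettl3* KO. It was higher by 0.32 in *Mettl3* KO (exact two-sided permutation p = 0.33, the smallest possible) and by 0.15 in *Trdn-as* KO (exact permutation p = 0.67), and it differed by -0.17 between *Trdn-as* KO and *Mettl3* KO (exact permutation p = 0.67). Without *Trdn-as* KO replicate 2, the last 2 differences were 0.31 and -0.01. At *Casq2*, the promoter sum was 249 and 250 for WT and 408 and 418 for *Mettl3* KO, while the other peaks summed to 88 and 82 and to 108 and 103. At *Ryr2*, both parts were lower in *Mettl3* KO, with promoter sums of 668 and 734 for WT and 542 and 544 for *Mettl3* KO, and sums of the other peaks of 207 and 261 and of 192 and 202. The log2 ratio of promoter to other signal was 1.49 and 1.60 for WT and 1.91 and 2.01 for *Mettl3* KO at *Casq2*, and it was 1.69 and 1.49 for WT and 1.49 and 1.42 for *Mettl3* KO at *Ryr2*.

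CTCF, which marks boundaries of chromatin loops, had peaks above the IgG signal upstream of *Casq2* and *Jph2* and inside *Asph*, at sites with little RNA polymerase II. Upstream of *Casq2*, a peak from 101988846 to 101989870 with its centre 4373 nt before the start held CTCF signals of 101 and 94 for WT, 99 and 107 for *Trdn-as* KO and 98 and 100 for *Mettl3* KO, IgG signals of 31 to 37 and RNA polymerase II signals of 3 to 26. Upstream of *Jph2*, a peak from 163242634 to 163244094 held CTCF signals of 180 and 154, 177 and 192, and 156 and 164 in the same order, with IgG between 37 and 46 and RNA polymerase II between 21 and 37. Neither was called in any comparison. At *Asph*, the peak from 9665138 to 9666343 held CTCF signals of 102 to 128, IgG signals of 18 to 39 and RNA polymerase II signals of 16 to 38. The *Asph* peak from 9609591 to 9610673 held 88 to 114, 18 to 46 and 11 to 23 in this order, and both were chosen after their values were seen. At *Asph*, *Hrc*, *Ryr2*, *Jph1*, *Calm2* and *Calm3*, the peak with the most CTCF was also the one with the most RNA polymerase II. Of these, CTCF was above IgG in all libraries at *Hrc* (134 to 157 against 59 to 92). The ranges of deposited units overlapped at *Ryr2* (106 to 138 against 79 to 184), *Asph* (107 to 128 against 81 to 180), *Calm2* (114 to 130 against 85 to 148), *Calm3* (140 to 155 against 98 to 158) and *Jph1* (29 to 37 against 26 to 78). One IgG read was worth 2.54 to 6.56 of these units and the value of a CTCF read was uncertain, so these overlaps do not show that CTCF was no higher than the background. The summed CTCF signal was 403 to 437 over the 6 libraries at *Ryr2*, 229 to 245 at *Casq2*, 803 to 848 at *Jph2*, 38 to 46 at *Jph1*, 664 to 789 at *Asph*, 146 to 167 at *Hrc*, 125 to 143 at *Calm2* and 158 to 172 at *Calm3*. *Fkbp1b* held 0 to 3 and was not tested.

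**Figure D5:**
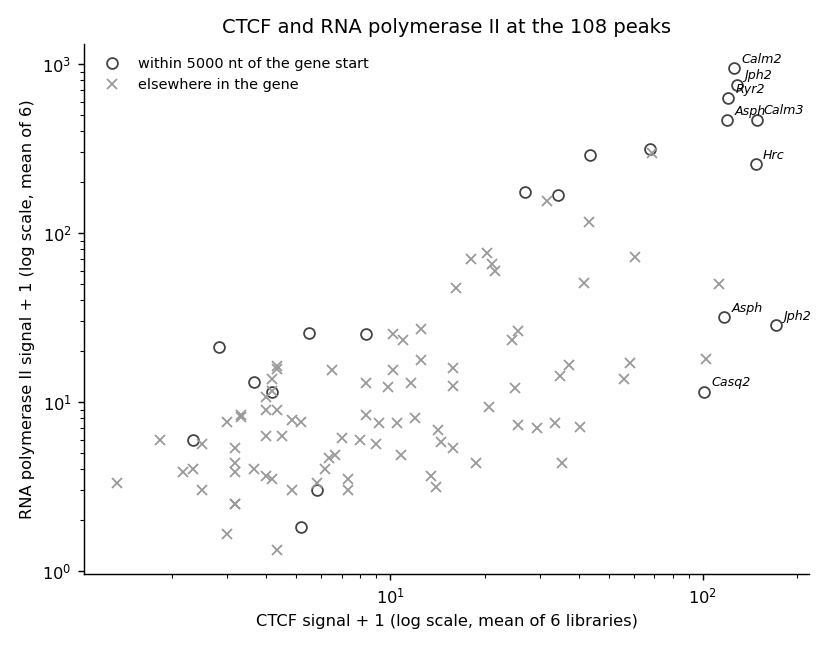
Mean CTCF signal + 1 (x axis, log scale) against mean RNA polymerase II signal + 1 (y axis, log scale) over the 6 libraries of each target at the 108 peaks, as circles within 5000 nt of the gene start and crosses elsewhere in the gene. Peaks at *Casq2*, *Jph2* and *Asph* combine a CTCF signal near or above 100 with little RNA polymerase II.

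For CTCF, limma called 0 of 8 tested members in *Trdn-as* KO against WT, where 0.881% of all genes were called, and log2 fold changes ran from -0.20 to 0.13. It called 0 of 8 in *Mettl3* KO against WT, where 2.50% were called, with log2 fold changes from -0.08 to 0.15, and 0 of 8 between the knockouts, where 4.19% were called, with -0.12 to 0.05. At an unadjusted p below 0.05, each of these had 0 members, against 11.5%, 17.8% and 21.0% of all genes. Of the 57 tested member peaks, 0 were called in *Trdn-as* KO against WT (0.587% of all peaks), 0 in *Mettl3* KO against WT (0.185%) and 0 between the knockouts (1.37%). At an unadjusted p below 0.05 there were 5, 5 and 7 in this order, against 10.2%, 15.7% and 18.8% of all peaks.

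The genes whose RNA polymerase II sums followed the members most closely over the 6 libraries were found among 10606 genes with a mean sum of at least 100, by the root mean square difference of centred log2 values. For *Casq2* these were *Nppb*, the gene of the natriuretic peptide BNP, with a difference of 0.04, *Wrn* (0.04) and *Nectin3* (0.04). *Nppb* held 673 and 706 for WT, 941 and 739 for *Trdn-as* KO and 1089 and 1088 for *Mettl3* KO. For *Jph2* they were *Mmrn2* (0.03), *C1qtnf9* (0.03) and *Lmo7* (0.03). For *Ryr2* they were *Arhgef25* (0.04), the unnamed gene ENSMUSG00002076467 (0.05) and *Cyyr1* (0.05).

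Of 18 other genes of the release unit, 14 had peaks and 13 were tested for RNA polymerase II. *Trdn* was lower in *Trdn-as* KO, with 531 and 665 for WT, 277 and 279 for *Trdn-as* KO and 473 and 443 for *Mettl3* KO (log2 fold change -1.09, adjusted p = 4.7e-08), and it was also lower than in *Mettl3* KO (-0.72, adjusted p = 0.0018). Without *Trdn-as* KO replicate 2, these were -1.10 (adjusted p = 0.00029) and -0.72 (adjusted p = 0.0055). As *Trdn-as* lies within *Trdn* on the other strand, ChIP-seq reads of the transcripts cannot be told apart there. *Ckap4*, which encodes a protein of the endoplasmic reticulum, was higher in *Mettl3* KO, with 250 and 242 for WT, 307 and 230 for *Trdn-as* KO and 358 and 382 for *Mettl3* KO (log2 fold change 0.59, adjusted p = 0.035). This call depends on the settings, since only 1 of all genes was called in *Mettl3* KO against WT with no filter or with no variance trend. Of the 13, 0 were thus higher and 1 lower in *Trdn-as* KO against WT, in *Mettl3* KO against WT 1 higher and 0 lower, and between the knockouts 0 higher and 1 lower, with medians of 0.02, 0.11 and -0.24, where 0.592%, 4.01% and 5.81% of all genes were called. *Fkbp1a*, a close relative of *Fkbp1b*, held 429 and 478 for WT, 489 and 462 for *Trdn-as* KO and 530 and 511 for *Mettl3* KO. The skeletal-muscle receptor *Ryr1* held 33 and 38 for WT, 43 and 49 for *Trdn-as* KO and 27 for each *Mettl3* KO library. For CTCF, 1 of 14 was called, the phosphodiesterase gene *Pde4d*, between *Trdn-as* KO and *Mettl3* KO (log2 fold change 0.21, adjusted p = 0.0029), where 4.19% of all genes were called.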

How the data were processed

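Per the labels, the libraries were ChIP-seq of mouse hearts. The authors used Trimmomatic 0.39 for trimming and STAR 2.7.11b for alignment to GRCm39, removed duplicates with Picard 3.1.1, called peaks with MACS, merged them, counted reads with featureCounts and normalized with DESeq2 1.36.0. The deposited values are this normalized signal in 15 columns, given as whole numbers, and are no longer counts of reads. The 3 input libraries were not analysed here. For 1 gene of the release unit, values are not reported here.

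Sums per peak and per gene were tested with limma 3.58.1 (R 4.3.3) on log2(value + 1), with a variance trend, over 3 genotypes, keeping rows of at least 10 in at least 2 of 6 libraries, with Benjamini-Hochberg adjustment over all rows at 0.05. Fold changes on this scale understate changes of low values. The value of 1 read was estimated from the spacing of values. In data simulated for *Trdn-as* KO against WT, with 200 changed features, a log2 fold change of 1 was recovered for 59.5% among 16873 RNA polymerase II genes and 49% among 18607 CTCF genes, but for only 21% among 50027 RNA polymerase II peaks and 15.5% among 62381 CTCF peaks. At a log2 fold change of 2 these were 98.5% (16880), 98% (18607), 92.5% (49963) and 96.5% (62384). The simulation used the mean of each row and a fixed dispersion, not the spread between these libraries. These shares are therefore not the power of these libraries. A count of 0 allows up to 3 reads. Distances to transcripts use a GRCm38 annotation, in which all 9 genes have the same length. Python 3.11.15, pandas 2.3.3, numpy 2.4.6, scipy 1.17.1 and matplotlib 3.10.9 were used.

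The members and lists were chosen with earlier results of these data known. The rule named all members, their peaks with the most RNA polymerase II (overall and without a gene) and the most CTCF, called peaks, and the 3 genes most like *Ryr2*, *Casq2* and *Jph2*. The adjoining *Jph2* peak and the peak over the *Hrc* start were added after their values were seen. Marker lists covered 7 cell types. Alternatives were other scalings, filters, pseudocounts, the compared genotypes alone, a replicate block, no variance trend, symbol rows only and leaving out each library.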

Additional observations from a re-analysis of the deposited data

How the results depend on the processing

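Depth and the number of libraries limit these results. Of 225 alternative values for the counts of called members and the promoter share, 176 kept their value or moved by less than 1.5 times or 1 SD, and 49 moved. The share of genes and peaks called in each comparison depends on how the spread is pooled over 2 libraries per genotype, and a value that misses the threshold does not show that genotypes are alike. No value of the promoter share could be had with symbol rows only, as the other peaks have no symbol. The causes of the changes below were not tested.

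In *Mettl3* KO against WT (1 peak and 1 gene called), scaling by mapped reads, no filter and no variance trend each gave 0 peaks and 0 genes. In this order, 0.0627%, 0.000% and 0.00380% of all peaks and 0.0352%, 0.00478% and 0.00586% of all genes were called. Quantile normalization gave 6 peaks and 4 genes (against 3.43% of all peaks and 8.91% of all genes), median centring gave 2 peaks and 3 genes (5.07% and 9.82%), and the compared genotypes alone gave 8 peaks and 6 genes (10.3% and 33.6%). Leaving out a WT or *Mettl3* KO library left 1 in its genotype, and the *Casq2* calls were lost. The median log2 fold change of the member genes was then 0.18 to 0.32. Leaving out either *Trdn-as* KO library gave 8 peaks and 6 genes (9.71% and 32.7% without replicate 1, 9.97% and 33.1% without replicate 2). The 6 genes were *Casq2*, *Asph*, *Calm2* and *Calm3*, higher, and *Ryr2* and *Jph2*, lower. In *Trdn-as* KO against WT (0 and 0 called), quantile normalization gave 2 peaks and 2 genes (0.832% and 1.90%), and median centring gave 2 genes (2.35%). Leaving out a *Trdn-as* KO library left 1 in that genotype, so its effect is given as log2 fold changes. The median of the member genes was -0.051 without replicate 1 and 0.25 without replicate 2. Without replicate 2, *Casq2* was 0.47 and *Jph2* -0.27. Between the knockouts (1 peak and 0 genes called), scaling by mapped reads, no filter, a value of at least 30, the compared genotypes alone, no variance trend and symbol rows only each gave 0 peaks (0.427%, 0.000988%, 6.21%, 0.137%, 0.0228% and 1.50% of all peaks), quantile normalization gave 2 peaks and 2 genes (2.54% and 6.73%), and median centring gave 4 genes (8.48%). Leaving out 1 library gave 0 to 5 peaks and 0 to 4 genes, with 5 and 4, all lower in *Trdn-as* KO, without its replicate 1 (19.3% and 49.3%), and 1 gene, *Ryr2*, higher without its replicate 2 (2.90%). For CTCF between the knockouts (0 and 0 called), quantile normalization gave 1 peak (1.88%) and median centring gave 1 peak and 1 gene (2.12% and 3.56%).

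Single log2 fold changes changed sign as follows. Scaled by mapped reads, *Trdn-as* KO against WT gave -0.29 at *Casq2* (-0.30 at its start peak), -0.44 at *Jph1*, -0.47 at *Asph*, -0.52 at *Hrc*, -0.47 at *Fkbp1b*, -0.39 at *Calm2* and -0.50 at *Calm3*, where the all-gene median was -0.63, and *Trdn-as* KO against *Mettl3* KO gave -0.17 at *Ryr2*, -0.26 at *Jph1* and -0.32 at *Hrc*. With quantile normalization, *Ryr2* was 0.014 in *Trdn-as* KO against WT, and between the knockouts *Jph2* was 0.029, *Asph* 0.056 and *Calm2* 0.0084. With median centring, these were 0.016, 0.19, 0.15 and 0.11, and *Calm3* was 0.028. With the peak over its start, *Hrc* was 0.12 in *Mettl3* KO against WT and -0.092 between the knockouts. With 1 library left out, values in *Trdn-as* KO against WT ran from -0.16 to 0.069 at *Ryr2*, -0.11 to 0.27 at *Hrc*, -0.12 to 0.31 at *Fkbp1b* and -0.051 to 0.25 at *Calm3*. In *Mettl3* KO against WT they ran from -0.26 to 0.18 at *Jph1* and -0.20 to 0.087 at *Hrc*, and between the knockouts from -0.25 to 0.074 at *Jph2*, -0.025 to 0.42 at *Jph1* and -0.049 to 0.33 at *Hrc*.

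With the replicate number as a block, 1 member gene and 1 member peak were called in *Mettl3* KO against WT (2.74% of all genes and 1.44% of all peaks), 0 and 0 in *Trdn-as* KO against WT (0.457% and 0.382%), and 0 and 1 between the knockouts (3.23% and 1.80%), and the block changed no member call. Same-numbered libraries did not deviate together (correlations of deviations from -0.0096 to -0.00023 for RNA polymerase II and from -0.24 to 0.0059 for CTCF). The -0.24, between WT and *Trdn-as* KO, means that CTCF libraries of unlike number deviated together to that degree. A batch that crosses the numbers was not tested.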

Other observations

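Of the remaining cell type lists, summed over the genes with a peak, endothelial markers (7 of 8 with a peak, *Pecam1* without) gave RNA polymerase II signals of 2711 to 2846 in WT, 2269 to 2910 in *Trdn-as* KO and 2483 to 2565 in *Mettl3* KO, with 1 gene lower in *Mettl3* KO (*Egfl7*). Smooth muscle and pericyte markers (8 of 8) gave 1030 to 1159, 917 to 1188 and 1241 to 1250 in the same order. Leukocyte markers (6 of 8) gave 273 to 292, 196 to 272 and 238 to 277. Skeletal muscle markers (4 of 8, without *Myh1*, *Myh2*, *Actn3* and *Tnnc2*) gave 514 to 523, 456 to 574 and 572 to 588. Adipocyte markers (4 of 8) gave 1537 to 1627, 1095 to 1379 and 1175 to 1177, and *Fabp4* held most of this sum (1378 and 1458 for WT). *Fabp4* was lower in *Mettl3* KO by a log2 fold change of -0.55 (limma, adjusted p = 0.0080). *Plin1* and *Cfd* went the other way (0.35 and 0.22, limma, adjusted p = 0.31 and 0.75), and the median of the tested adipocyte markers was 0.22.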
